A study of Mus musculus with 3 samples.

Results

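The microglia class holds the cells that the authors' cell type column names Microglia in 3 single-cell RNA libraries of immune cells from the mouse brain. It has 6918 of the 12668 annotated cells, or 54.6%. It makes up 2877 cells and 81.2% of the no-tumor library, 2062 cells and 41.0% of the LGG (low grade glioma) library, and 1979 cells and 48.3% of the library labelled HGG. Every cell with that name was taken, and no measured value was used to add or remove one.

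The study set immune cells of the right hemisphere of brains without tumor beside those of brains with LGG or HGG, with the myeloid cells as its main interest. CD45-positive cells, CD45 being a surface protein of white blood cells and microglia, were enriched from papain-digested tumor or normal tissue at the side of an injection of cells and run on a 10x Genomics Chromium controller. The labels give 0 to 2 weeks for the no-tumor group, 3 to 4 weeks for LGG and 6 to 8 weeks for HGG, and do not say if that is the age of the mice or the time since injection. All groups share the species, the hemisphere, the digestion and the selection. The labels give neither genotype nor strain, sex, the nature of the injected cells or the number of animals per library. The HGG library was placed in its group by its description and library name, although the words of its title name no tumor.

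Microglia are the resident macrophages of the brain parenchyma. They derive from yolk sac precursors, renew themselves locally and survey the tissue with motile processes. In the undisturbed brain they are known for Tmem119, a surface protein used as their marker, P2ry12, a purine receptor that guides their processes toward injury, Cx3cr1, the receptor for the neuronal chemokine fractalkine, and Sall1, a transcription factor that maintains their identity. Such genes are known to decline when microglia become activated, and glioma tissue is known to hold both microglia and macrophages that arrive from the blood.

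Expression values of single genes were not analysed here. The name could not be checked against these markers, and the word homeostatic was not applied to any cell. The data are the measurements that the authors attached to each cell. These are the number of UMIs (unique molecular identifiers, each counting 1 captured RNA molecule), the number of genes detected, the percent of UMIs from mitochondrial genes, the percent from ribosomal genes, scores for cell cycle phase, doublet calls, clusterings and several parallel annotations. Each group is 1 library, so no difference between groups has a replicate check, no test was made, and library, labelled age and tumor group cannot be told apart. Intervals in brackets are exact 95% Clopper-Pearson intervals of a share of cells and cover counting error only. Across the libraries 15 barcode sequences occurred more than once, on 30 cells, of which 15 were in the microglia class, and for 3 of these sequences all cells were in the class.

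Typical depth of the microglia was alike in the 3 libraries, but its spread was not. The median depth was 8967 UMIs per cell in no-tumor, 8646.5 in LGG and 9072 in HGG microglia. The middle 50% of cells lay between 6515 and 11230 UMIs with no tumor and between 5966.5 and 11321 in LGG. In HGG they lay between 5143.5 and 17570.5 UMIs. The 90th percentile was 3.75 times the 10th with no tumor, 4.73 times in LGG and 14.2 times in HGG. The HGG microglia were spread toward both ends. The likeness of the medians depends on the shallow cluster 5 described further on, without which they were 9342, 9099 and 11593 UMIs for no tumor, LGG and HGG.

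At the shallow end, 3.27% of no-tumor microglia (2.65 to 3.98%, 94 cells) had fewer than 2000 UMIs. The share was 6.89% in LGG (5.83 to 8.07%, 142 cells) and 12.3% in HGG (10.9 to 13.8%, 243 cells). At the deep end, 5.46% of no-tumor microglia (4.66 to 6.35%) and 7.18% of LGG microglia (6.10 to 8.38%) had 15000 UMIs or more. In HGG it was 31.5% (29.4 to 33.6%, 623 cells). The HGG library had the highest share at both ends, with intervals apart from those of the other libraries. In the bin from 10000 to 12000 UMIs, close above the medians, the order was the opposite, with 19.8% of no-tumor, 16.9% of LGG and 6.01% of HGG microglia.

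**Figure D1:**
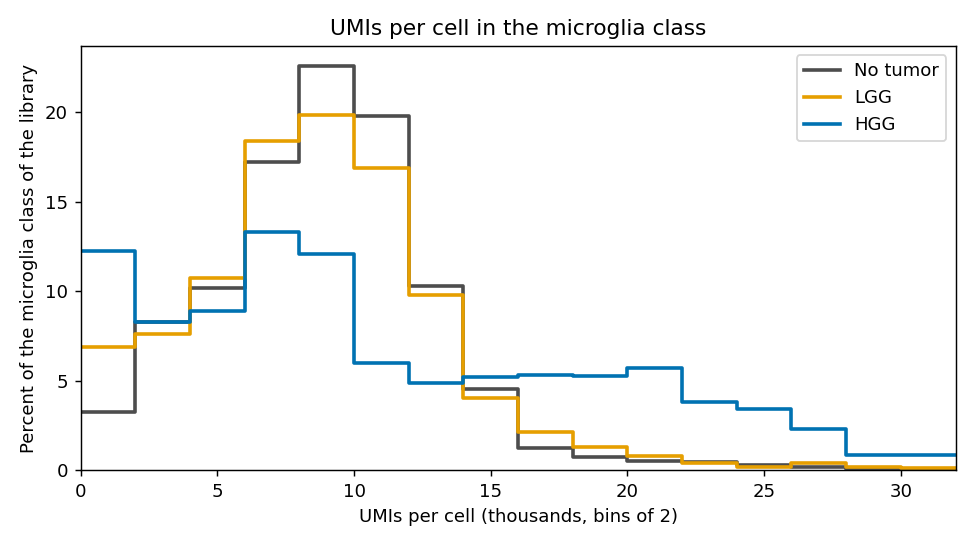
Percent of the microglia of each library (y axis) by UMIs per cell in bins of 2000 (x axis), 1 line per library. The no-tumor and LGG lines have 1 peak around 8000 to 10000 UMIs, where they hold 22.6% and 19.9% of cells, while the HGG line is lower there (12.1%) and runs on in a broad shoulder beyond 15000 UMIs.

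The number of genes detected had its median at 2884 per cell with no tumor, 2525 with LGG and 2798 with HGG. LGG microglia held the fewest genes also at like depth over the middle of the range. Among cells with 8000 to 10000 UMIs the median was 2901 genes with no tumor, 2622.5 with LGG and 2846 with HGG. From 12000 to 15000 UMIs it was 3596, 3195 and 3110 genes in the same order, so that HGG microglia had the fewest in that stratum and no-tumor microglia the most in both.

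Mitochondrial UMIs took a median of 2.25% per no-tumor, 3.03% per LGG and 3.82% per HGG cell of the class. The middle 50% of cells lay between 1.62 and 2.99% with no tumor, between 2.20 and 4.03% in LGG and between 2.17 and 5.22% in HGG. The 3 ranges overlapped, and that of HGG was the widest. More than 5% mitochondrial UMIs were found in 6.40% of no-tumor, 13.8% of LGG and 29.0% of HGG microglia. Less than 0.5% were found in 4.24% (3.53 to 5.04%), 5.29% (4.36 to 6.34%) and 11% (9.62 to 12.4%) of them. HGG again had the most cells at both ends. The order of the medians was not particular to microglia. Over all cells of each library they were 2.33, 3.32 and 4.13% for no tumor, LGG and HGG. In the macrophages class they were 1.46% (46 cells), 3.64 and 4.21%, and in glioma associated macrophages 2.22, 3.07 and 4.61%. Border associated macrophages did not share the order, with 3.59, 3.58 and 3.25%.

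In HGG the mitochondrial percent moved with depth. Spearman's rho between UMIs and mitochondrial percent across the cells was -0.05 with no tumor, 0.12 with LGG and 0.53 with HGG. This describes cells of 1 library each, and both measures share the UMI total. From 6000 to 8000 UMIs the median mitochondrial percent was 2.04 with no tumor, 3.00 with LGG and 2.62 with HGG. From 12000 to 15000 UMIs it was 2.27, 3.34 and 4.70 in the same order. LGG was thus above HGG at moderate depth and below it among deep cells, and no-tumor microglia were lowest in both strata. Over the range of depth that the central cells of all libraries share, from 3621.4 to 13578 UMIs, the medians were 2.20% with no tumor, 2.95% with LGG and 2.88% with HGG, so that the order of LGG and HGG depends on the deep cells. That range holds 45.4% of HGG microglia.

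Ribosomal UMIs, from a gene pattern that is not stated, took a median of 0.380% in no-tumor, 0.351% in LGG and 0.341% in HGG microglia. The same order was found under each alternative choice of cells for which it was computed. Among cells below 2000 UMIs it was reversed, with 0.306, 0.395 and 0.511% for no tumor, LGG and HGG.

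The authors deposited clusterings at 22 resolutions. At resolution 1.5, the one used below, the microglia fell into 7 of 24 clusters. Together these clusters held 90.9% microglia, the highest such share among the 22 resolutions. The class names may have been made from such clusters, so the match of names and clusters is not an independent check. Clusters 0, 1, 2, 5 and 14 held 99.1 to 99.8% microglia. Cluster 3 held 83.2% microglia beside 206 cells named activated microglia. Cluster 7 held 23.3%, and 460 of its other cells were named activated microglia. Since the clusters divide these same cells and span all libraries, their sizes are described and not tested, and with 1 library per group a cluster found mostly in 1 library may be that library and not a type.

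Clusters 0 and 3 together held 35.7% of the no-tumor, 40.6% of the LGG and 41.2% of the HGG microglia. Clusters 1 and 2 together held 45.2%, 45.2% and 34.8%. Within the latter pair, cluster 2 held 20.4% of no-tumor (19.0 to 22.0%), 26.4% of LGG (24.5 to 28.3%) and 12.7% of HGG microglia (11.3 to 14.3%). Its share was highest in LGG and lowest in HGG. Cluster 5 held 9.14% (8.11 to 10.3%) with no tumor, 10.6% (9.32 to 12%) in LGG and 21.1% (19.3 to 23.0%) in HGG. The HGG share of cluster 5 lay above those of the other libraries, whose intervals overlapped. Cluster 14 held 5.28%, 3.49% and 2.68%.

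**Figure D2:**
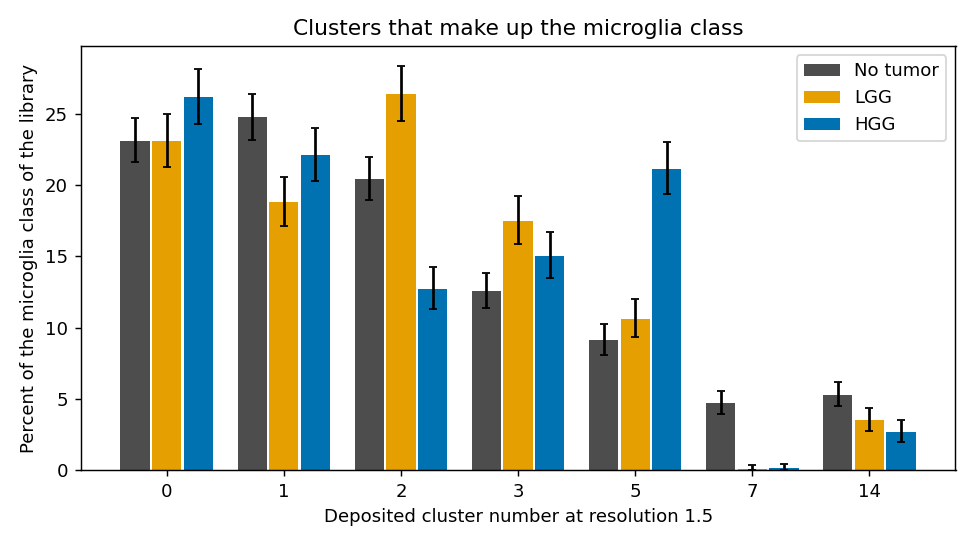
Percent of the microglia of each library (y axis) in each of the 7 clusters of resolution 1.5 (x axis), with exact 95% intervals as error bars. Cluster 5 stands at 21.1% in HGG against 9.14% with no tumor and 10.6% in LGG, and cluster 7 holds 4.69% of no-tumor microglia and almost none of the others.

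The clusters also divided the HGG microglia by depth. In cluster 0 the median was 9544 UMIs in no-tumor, 10534 in LGG and 18927.5 in HGG microglia. In cluster 3 it was 8495, 8779 and 18403.5. The HGG medians were 1.98 and 2.17 times those of the no-tumor library. In clusters 1 and 2 the order turned. Cluster 1 had a median of 10133.5 UMIs in the no-tumor, 9197 in the LGG and 7902 in the HGG library, and cluster 2 had 10032, 8957 and 7976.

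More than 15000 UMIs were carried by 69.1% of the HGG microglia of clusters 0 and 3 and by 7.55% of those of clusters 1 and 2. With no tumor these shares were 4.19% and 8.00%, and in LGG 12.3% and 4.4%. Of the 623 deep HGG microglia, 564 were thus in clusters 0 and 3. The mitochondrial percent followed the same division. Its HGG median was 4.86% in cluster 0 and 4.72% in cluster 3, against 2.59% in cluster 1 and 3.46% in cluster 2. With no tumor the 4 clusters lay between 2.08 and 2.35%, and in LGG between 2.88 and 3.05%. Within clusters 0 and 3 of HGG, rho between UMIs and mitochondrial percent was 0.18, and within clusters 1 and 2 it was 0.27, both below the 0.53 of all HGG microglia.

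**Figure D3:**
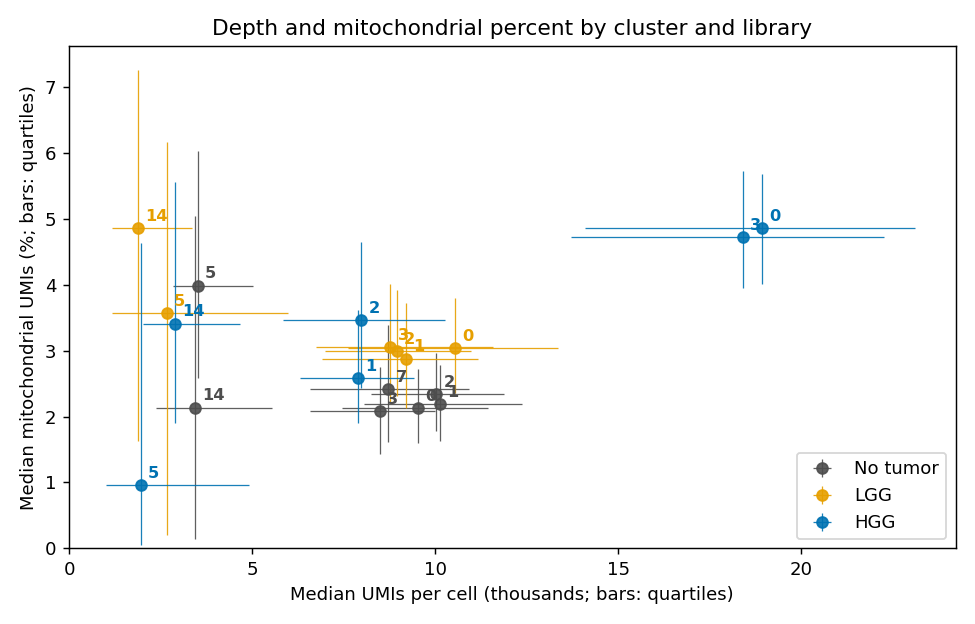
Median percent of mitochondrial UMIs (y axis) against median UMIs per cell (x axis) of the microglia, by cluster of resolution 1.5 and library. The number beside a point is its cluster and the color its library. Bars run from the 25th to the 75th percentile in both directions. Clusters with fewer than 20 cells in a library are left out. HGG microglia reach 18927.5 and 18403.5 UMIs in clusters 0 and 3 and have fewer UMIs than the other libraries in clusters 1 and 2.

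Clusters 5 and 14 were shallow in every library. Cluster 5 had a median of 3520 UMIs in no-tumor, 2665 in LGG and 1955.5 in HGG microglia, which is 0.393, 0.308 and 0.216 times the median of all microglia of that library. Cluster 14 had 3428.5, 1891 and 2882 UMIs. The median of cluster 14 was 0.382, 0.219 and 0.318 times that of all microglia, so that both clusters were relatively shallower in LGG and HGG. Their ribosomal percents differed. The median was 0.402, 0.450 and 0.508% in cluster 5 for no tumor, LGG and HGG, and 0.276, 0.277 and 0.249% in cluster 14.

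Most cells of cluster 5 were of 2 kinds of mitochondrial percent, which the coarser resolution 0.4 separates. Its cluster 3 took 217 of these cells with no tumor, 132 with LGG and 204 with HGG. Their median mitochondrial percent was 4.33, 5.59 and 4.61. Its cluster 6 took 25 cells with no tumor, 75 with LGG and 200 with HGG, or 0.869%, 3.64% and 10.1% of the microglia of each library. Their median mitochondrial percent was 0.149, 0.0842 and 0.050, and 97 of these 300 cells had no mitochondrial UMI at all. They had a median of 1131, 1405 and 1510.5 UMIs and of 617, 662 and 656.5 genes, close to each other in the 3 libraries. These cells made up 9.51% of cluster 5 in the no-tumor, 34.2% in the LGG and 47.8% in the HGG library. The low mitochondrial median of cluster 5 in HGG, 0.957% against 3.99% with no tumor and 3.57% in LGG, goes with that mix. Another 47 cells of cluster 5 lay elsewhere at resolution 0.4, with median mitochondrial percents of 3.55, 2.89 and 2.92 for no tumor, LGG and HGG.

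Finer clusterings divided the class further, into 25 clusters with at least 20 microglia at resolution 5. The largest difference in composition at that resolution stood in its cluster 0, which held 136 microglia with no tumor, 141 with LGG and 374 with HGG, or 4.73%, 6.84% and 18.9%. Its cluster 9 ran the other way with 251, 146 and 22 cells. At the coarsest resolution, 0.1, 86.8% of the class lay in a single cluster.

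The table names each cell in other columns as well. Broader layers of names are given in 4 columns, of which 3 call every cell of the class microglia and the other calls every cell myeloid. Apart from these layers, 12 columns use the word microglia and were set side by side. They come from reference-based and marker-based annotations and share the same cells and counts, so their overlap is a description. All 12 called 80.3% of the no-tumor (78.8 to 81.8%), 86.4% of the LGG (84.8 to 87.8%) and 75.6% of the HGG class (73.6 to 77.5%) microglia. That is 5588 cells, or 80.8% of the class. The strictest column, SCSA version 5, called 2311 no-tumor, 1790 LGG and 1499 HGG cells microglia. Cluster 0 of resolution 0.4 holds the same numbers of class cells. The share called by all 12 thus largely follows the size of that cluster and is not an agreement of 12 separate annotations. Between 1 and 4 of the 12 did so for 23 cells with no tumor, 138 with LGG and 288 with HGG, which is 0.799%, 6.69% and 14.6%. Of these 449 cells 446 were in cluster 5, and their median was 2037 UMIs. Cells of the class that none of the 12 columns called microglia numbered 10 in LGG and 9 in HGG. There were 0 of 2877 with no tumor, a count that leaves room for a share of up to 0.104% at 3 counts of the total.

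The columns fell into a lenient and a strict group. The first SingleR main labels called 100% of no-tumor, 99.5% of LGG and 99.4% of HGG cells of the class microglia. The second SingleR main labels gave 99.7%, 95.8% and 91.3%. The second VHove2019 labels gave 99.2%, 92.5% and 85.1%. The column that the table calls the final cell type gave 90.4%, 88.7% and 77.1%. In each of these 4 columns HGG had the lowest share. In the first SingleR main labels its interval (98.9 to 99.7%) overlapped that of LGG (99.0 to 99.7%). Labels of the glioma references use other words, and 3 columns use TAM 2. It covered 99.9%, 97.8% and 97.2% of the class in the scANVI column. The shares were 98.7%, 94.1% and 88.3% in the first VHove2019 labels, and 98.7%, 94.2% and 88.3% in the PAntunes2021 labels. The first VHove2019 and PAntunes2021 columns gave TAM 2 to 6529 and 6531 cells and unknown to 345 and 343. Their other names had equal counts, so they may not be separate annotations. In cluster 5 the first VHove2019 labels gave TAM 2 to 87.8%, 50.7% and 45.2%.

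Cells that not all 12 columns called microglia numbered 566 with no tumor, 281 for LGG and 483 for HGG, and 246, 218 and 412 of them were in cluster 5. Cluster 5 thus held most of them in LGG and HGG, and fewer than the other clusters together in the no-tumor library. The final cell type column called 857 of its 900 cells Macrophage Cluster 2. Within the class, the microglia calls of that column equal those of the SCSA column named for resolution 0.4. At that resolution 553 of the 900 cells lie in cluster 3 and 300 in cluster 6, so this name may restate a clustering. The second VHove2019 labels called 91.3% of the no-tumor, 32.4% of the LGG and 30.6% of the HGG cells of cluster 5 microglia. They named 236 of the 900 cDC, conventional dendritic cells, of which 6 were without tumor, 64 in LGG and 166 in HGG. They named 178 BAM, border-associated macrophages that live in the meninges and around vessels, of which 6 were without tumor, 69 in LGG and 103 in HGG. The second SingleR main labels named 232 of them Macrophages, 5, 69 and 158 in the same order. The lenient first SingleR main labels called 878 of the 900 microglia. Outside cluster 5 the second VHove2019 labels called 100% of no-tumor, 99.6% of LGG and 99.7% of HGG cells of the class microglia.

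**Figure D4:**
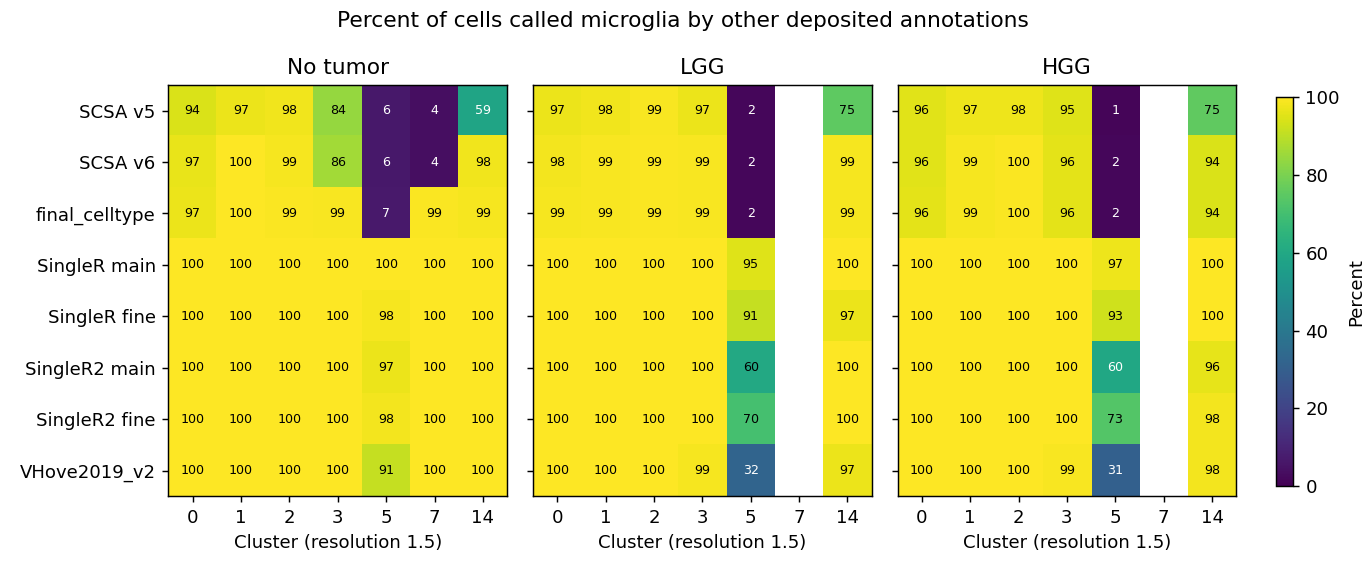
Percent of the microglia class called microglia by each of several annotation columns (shown by shade) in each cluster of resolution 1.5, by library. Cells of the plot with fewer than 20 cells are blank. Cluster 5 has the lowest shares in the final cell type column, with 6.84%, 1.83% and 1.91% for no tumor, LGG and HGG. The microglia calls of that column equal those of the SCSA column named for resolution 0.4, so this contrast may restate a clustering.

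Cluster 5 kept this difference at like depth. Among cells with 500 to 2000 UMIs, the second VHove2019 labels called 27.1% of HGG cells of cluster 5 microglia (21.3 to 33.6%, 214 cells) and 93.1% of HGG cells of the other clusters (77.2 to 99.2%, 29 cells). In LGG the shares were 33.7% and 94.6%, and with no tumor 72.1% and 100%. From 4000 to 8000 UMIs they were 35.0% and 100% in HGG, 31.1% and 99.8% in LGG, and 97.8% and 100% with no tumor. The no-tumor cells of cluster 5 were thus nearly all called microglia at moderate depth, and those of LGG and HGG were not.

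Both kinds of cells within cluster 5 shared in this. Of the cells with a high mitochondrial percent, the second VHove2019 labels called 96.3% microglia with no tumor, 44.7% with LGG and 50.5% with HGG. Of those with a low one they called 44.0%, 12% and 7.5% microglia, which is 11, 9 and 15 cells. In each library the share was lower among cells with few mitochondrial UMIs. Those cells were also shallower, with medians of 1131, 1405 and 1510.5 UMIs against 3635, 4577.5 and 3441.5, and depth was not matched here.

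A second set of microglia was marked off by cluster. Of the no-tumor microglia 186, or 6.47%, lay in clusters 2 and 13 of resolution 0.4. These clusters were picked because all their LGG and HGG cells are named activated microglia. That no LGG or HGG microglia lay there follows from this choice and is not a finding about the no-tumor library. At resolution 1.5 these cells were in cluster 7 (130 cells), cluster 3 (47 cells) and elsewhere (9 cells). All no-tumor cells of the 7 clusters carry the name Microglia, and the class of activated microglia has 453 cells in LGG, 348 in HGG and 0 with no tumor. The 186 cells were not shallow, with a median of 8763.5 UMIs against 8992 in the other no-tumor microglia, 2745 genes and 2.42% mitochondrial UMIs. The SCSA columns of versions 5 to 7 called them Granulocytic MDSC, a name for suppressive cells of the granulocyte line. Each gave that name to 186 cells of the class, all in the no-tumor library. The name thus has the same extent as the clusters and is not a second line of evidence. Of the 12 columns, 9 called 184 of these cells microglia.

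Phase calls come from an S score, for genes of DNA replication, and a G2M score, for genes of mitosis. A cell is called G1 where both scores are below 0 and otherwise takes the phase of the larger score, a rule that all 6918 calls follow. Outside G1 were 28.4% of no-tumor (26.8 to 30.1%), 36.6% of LGG (34.5 to 38.7%) and 33.5% of HGG microglia (31.4 to 35.6%). The no-tumor share was the lowest, and the intervals of LGG and HGG overlapped. G2M calls made up 4.10% (3.41 to 4.89%), 7.27% (6.19 to 8.48%) and 6.87% (5.80 to 8.08%).

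These shares count cells close to the border of the rule. The larger score lay within 0.02 of 0 in 32.6% of no-tumor, 45.6% of LGG and 42.7% of HGG microglia. Of the cells outside G1, 77.8%, 84.5% and 84.9% had a larger score below 0.05. A score above 0.1 was reached by 47 no-tumor cells, 22 LGG cells and 23 HGG cells, or 1.63% (1.2 to 2.17%), 1.07% (0.670 to 1.61%) and 1.16% (0.738 to 1.74%), with intervals that overlap. Among the 271 cells of the whole table that a VHove2019 label names prol. TAM, 77.5% were above 0.1. Of these 271 cells 25 were in the microglia class, 12 in LGG and 13 in HGG, and all 25 were in cluster 5. Among the 25, 24% were above 0.1. No cycling is read from the phase calls of microglia.

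The mean scores were all below 0. The S score was -0.0208 with no tumor (SD over cells 0.0427), -0.0136 in LGG (SD 0.0366) and -0.0154 in HGG (SD 0.0369). The G2M score was -0.0545 (SD 0.0337), -0.0432 (SD 0.0319) and -0.0436 (SD 0.0334). LGG lay above no tumor by 0.00726 in the S and by 0.0114 in the G2M score, differences smaller than the spread between cells.

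Cluster and depth moved with the phase calls. In cluster 5, 47.5% of no-tumor, 52.5% of LGG and 50.5% of HGG cells were outside G1, with overlapping intervals. Below 2000 UMIs the shares were 46.8%, 43.0% and 55.1%. From 8000 to 10000 UMIs they were 28%, 32.4% and 25.5%. Without cluster 5 the shares of the class were 26.5% (24.8 to 28.2%), 34.7% (32.5 to 36.9%) and 29.0% (26.7 to 31.3%), so that HGG overlapped no tumor and LGG stood above both. In cluster 0 the shares were 24.7%, 34.9% and 25.3%, and in cluster 3 they were 30.7%, 42.1% and 29.5%, with LGG the highest in both.

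**Figure D5:**
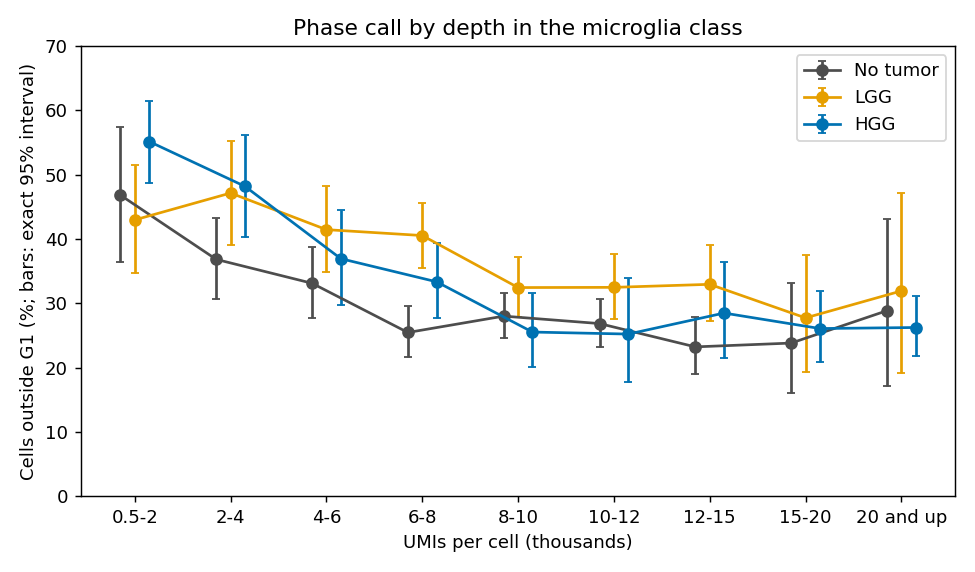
Percent of microglia outside G1 (y axis) by stratum of UMIs per cell (x axis), 1 line per library, with exact 95% intervals as error bars. Shares are highest among shallow cells, below 2000 UMIs with no tumor (46.8%) and in HGG (55.1%) and from 2000 to 4000 UMIs in LGG (47.1%), and from 6000 to 8000 UMIs LGG stands at 40.5% against 25.5% with no tumor.

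Doublet calls, which mark barcodes likely to hold more than 1 cell, were kept in the table. They fell on 62 no-tumor microglia (2.16%, 1.66 to 2.75%), on 1 LGG cell (0.0485%, 0.00123 to 0.270%) and on 23 HGG cells (1.16%, 0.738 to 1.74%). Among cells outside the class they fell on 5.85%, 6.82% and 5.28%. LGG microglia had the fewest calls, although 148 of them carried 15000 UMIs or more, close to the 157 of the no-tumor library. The called cells were deep, with a median of 20925.5 UMIs with no tumor and 25026 in HGG. None of them was in cluster 5 or 14.

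The HGG library as a whole was also wide in depth. Over all its cells the 90th percentile of UMIs was 13.8 times the 10th, against 4.81 times over all no-tumor and 8.40 times over all LGG cells. The microglia were set beside 4 other classes, picked by name and not by a measured likeness. The 90th percentile of UMIs in HGG was 14.2 times the 10th in microglia and 12.5 times in glioma associated macrophages. It was 7.79 times in border associated macrophages, 4.93 times in macrophages and 4.73 times in activated microglia. Activated microglia had a median of 15941 UMIs and 4.65% mitochondrial UMIs in HGG, nearer to the HGG microglia of clusters 0 and 3 than to those of clusters 1 and 2. In LGG their median was 9535 UMIs and 3.99% mitochondrial UMIs. The LGG microglia had medians of 9733 UMIs and 3.04% in clusters 0 and 3, and of 9036 UMIs and 2.95% in clusters 1 and 2. In LGG the activated microglia thus lay between these pairs in depth and above both in mitochondrial percent. The differences between classes were not tested, since each rests on cells of 1 library.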

How the data were processed

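Droplet single-cell RNA sequencing was read from 1 table of cells. Per the labels' protocols, Cell Ranger 3.0.2 mapped the reads to mm10 and quantified them. The submitters' processing notes also name Seurat 4. The table has 64 columns, of which 52 were used and 12 were not. UMIs and genes per cell are counts that the authors deposited without normalization, per the file headers. The mitochondrial and ribosomal percent, and the S and G2M score, were deposited by the authors too, and their gene lists and the limits for keeping cells are not stated. The lowest values are 501 UMIs and 201 genes, and the highest mitochondrial percent is 9.97.

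Cells were assigned to groups by library name. The class is every cell named Microglia in the cell type column. The class and the marker list were chosen with earlier results of these data known. Markers were to be used only with values per gene, so no gene is given a value. Percentiles, means and shares were computed per library with Python 3.11.15, pandas 2.3.3, NumPy 2.4.6 and SciPy 1.17.1, and drawn with matplotlib 3.10.9. With 1 library per group no test was made. The interval calculation was tested on simulated shares. Depth could not be thinned without values per gene, so strata of UMIs and a common range, from the highest 10th to the lowest 90th percentile, were used. A cluster was counted where it held at least 20 microglia. The 12 columns set side by side are those that use the name microglia, other than 3 broader layer columns that give it to every cell of the class. They were chosen after the data were seen, and 4 of them hold the same calls within the class. The alternatives left out doublet calls, cells above 5% mitochondrial UMIs, depths outside the common range or clusters of activated microglia, added the activated class, or kept only cells with 12 agreeing columns. Leaving out cluster 5 and weighting by the clusters or strata of the no-tumor library were added after the data were seen.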

Additional observations from a re-analysis of the deposited data

How the results depend on the processing

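No paired analysis was possible because each group is 1 library without a replicate number, and for the same reason no replicate could be left out. Values below are in the order no tumor, LGG, HGG unless a library is named. Without cluster 5, the median was 9342, 9099 and 11593 UMIs, the mitochondrial median was 2.20% with no tumor and 4.09% in HGG, 26.5% of no-tumor and 29.0% of HGG cells were outside G1, and all 12 columns called 87.8, 96.6 and 95.5% microglia, which moved HGG from the lowest place. With only cells that all 12 columns call microglia, the median was 9587, 9207 and 11727 UMIs and 2998, 2632 and 3066.5 genes, with 4.12% mitochondrial UMIs in HGG, 0.346% ribosomal UMIs in LGG and 0.324% in HGG. In the same cells 34.5% of LGG and 28.5% of HGG were outside G1, G2M calls were 3.20, 5.78 and 3.81%, the median S score was -0.0220 in HGG, and the median G2M score was -0.0584 with no tumor and -0.0518 in HGG. With at most 5% mitochondrial UMIs, HGG had the lowest median depth (9204, 8863 and 7897 UMIs, and 2934, 2588 and 2630 genes), 36.0% of HGG cells were outside G1, all 12 columns called 83.0, 89.0 and 73.2% microglia, and in HGG the second VHove2019 labels called 82.4% and the second SingleR main labels 88.6%. In the common range of UMIs, the mitochondrial median was 2.20, 2.95 and 2.88%, 31.1% of HGG cells were outside G1, G2M calls were 3.08% with no tumor and 5.23% in HGG, the median S score was -0.0231 in HGG, and the median G2M score was -0.0578 with no tumor and -0.0507 in HGG. There all 12 columns called 85.0, 92.6 and 82.7% microglia, the second VHove2019 labels 99.9, 96.1 and 91.0%, and the second SingleR main labels 100, 98.3 and 97.1%. With activated microglia added, HGG had a median of 9881 UMIs and 2885 genes, the mitochondrial median was 3.15% in LGG and 4.01% in HGG, the ribosomal median was 0.345% in LGG, all 12 columns called 70.8% of LGG and 64.3% of HGG microglia, and the second VHove2019 labels 90.8% of LGG. Without the clusters of activated microglia, all 12 columns called 85.9% of no-tumor cells microglia. With the no-tumor weights over 9 UMI strata, 31.2% of HGG cells were outside G1. LGG had the highest and no tumor the lowest share outside G1 under each alternative choice of cells, but not within every stratum or cluster. Below 2000 UMIs the shares were 46.8, 43.0 and 55.1%, and in cluster 3 they were 30.7, 42.1 and 29.5%. The number of clusters with at least 20 microglia, 7 at resolution 1.5, was 2 at resolution 0.1, 4 at 0.2, 12 at 2.5, 14 at 3, 18 at 3.5, 18 at 4, 21 at 4.5 and 25 at 5. The cause of these shifts was not tested. Depth limits the shallow cells most, in which a share of mitochondrial UMIs or a phase score rests on few molecules.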
